A study of Mus musculus with 8 samples.

Results

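Tubulins are the proteins of which microtubules are built. The 10 genes described here, *Tuba1a*, *Tuba1b*, *Tuba1c*, *Tuba4a*, *Tubb2a*, *Tubb2b*, *Tubb3*, *Tubb5*, *Tubb6*, and *Tubg1*, were taken by name, and every array probe annotated to them was followed. This gave 15 of the 25697 probes on the array, for 9 of the 10 genes, since no probe was annotated to *Tuba1c*. The arrays were Illumina MouseRef-8 BeadChips, on which each kidney's biotin-labelled RNA binds to beads that carry gene-specific probes. Of these 15 probes, 11 probes of 7 genes were detected on at least 3 of the 8 arrays and were tested. The other 4, one probe each of *Tubb2a*, *Tubb2b*, *Tubb3*, and *Tubb5*, were detected on no array.

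Kidneys of 4 *Pkd1*V/V mice, labelled as cystic, were set against kidneys of 4 wild-type littermates, all on postnatal day 10 (P10). *Pkd1* encodes polycystin-1, the protein whose loss gives polycystic kidney disease, and *Pkd1*V/V is a hypomorphic genotype, that is, one with reduced function. No mouse of either group was given an agent, and the sources used here do not give sex, or state strain specifically for these mice. Each array held RNA of a whole kidney, taken from the pellet of a centrifuged homogenate. RNA of all cell types was therefore pooled, and a change in the number of cells of a type cannot be told apart from a change in RNA per cell. Wild-type kidney 4 stood apart by its liver transcripts and mutant kidney 1 by its leukocyte transcripts, so the main results are also given without both.

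Alpha- and beta-tubulin join into the dimers that polymerize into microtubules, and gamma-tubulin, within a ring-shaped complex, starts new microtubules. Mammals carry several genes for alpha- and for beta-tubulin, called isotypes, which are used to different extents in different tissues. In renal epithelium, microtubules run along the axis of the cell, form the mitotic spindle, and make the core of the primary cilium, where polycystin-1 is found. The coding sequences of isotypes are very similar, so a probe can bind RNA of a closely related isotype. Assignment of a signal to a single isotype rests on the platform annotation, and probe sequences were not used here.

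Among protein-coding genes of the mouse reference, *Tuba1b*, *Tuba1a*, and *Tuba1c* follow each other on chromosome 15, *Tubb2a* and *Tubb2b* are neighbours on chromosome 13, and *Tubg1* lies next to *Tubg2* on chromosome 11. RefSeq promoter windows of assembly GRCm38.p6 were matched for 7 of the 10 genes, and no window was used for *Tubb2b*, *Tubb6*, or *Tubg1*. The 250 bases before the transcription start follow for the 3 called genes among these 7, since these 3 genes were higher together. Capitals mark CCAAT, the box that nuclear factor Y binds, and GGGCGG, the GC box that Sp1 binds, each searched on both strands. The windows are chr15:98953502-98953751 for *Tuba1a*, chr15:98934391-98934640 for *Tuba1b*, and chr17:35838302-35838551 for *Tubb5*, all on the minus strand and printed 5′ to 3′.
Tuba1a: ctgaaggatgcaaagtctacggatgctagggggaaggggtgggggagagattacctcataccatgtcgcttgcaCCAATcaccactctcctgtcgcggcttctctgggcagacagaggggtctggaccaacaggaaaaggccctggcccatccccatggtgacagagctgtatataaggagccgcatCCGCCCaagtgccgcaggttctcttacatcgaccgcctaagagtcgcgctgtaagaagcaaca
Tuba1b: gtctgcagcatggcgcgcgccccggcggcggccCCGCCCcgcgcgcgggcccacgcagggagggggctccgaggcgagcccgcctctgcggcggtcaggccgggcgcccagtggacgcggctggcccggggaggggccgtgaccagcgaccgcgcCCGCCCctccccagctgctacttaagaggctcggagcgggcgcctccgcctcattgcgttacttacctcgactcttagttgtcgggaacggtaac
Tubb5: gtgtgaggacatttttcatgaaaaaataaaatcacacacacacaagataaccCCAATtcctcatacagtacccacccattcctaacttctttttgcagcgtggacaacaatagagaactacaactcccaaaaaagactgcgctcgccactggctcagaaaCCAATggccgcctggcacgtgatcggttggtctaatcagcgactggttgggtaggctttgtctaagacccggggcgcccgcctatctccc

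The *Tuba1a* window held a CCAAT box at 176 bases before the start and a GC box on the other strand at 63 bases before it. In that of *Tuba1b* the GC box stood in 2 places and the CCAAT box in none, and in that of *Tubb5* it was the reverse. Over 32851 RefSeq windows of the same length, 33.8% held a CCAAT box and 32.7% held a GC box. The letters TATAAA, a form of the TATA box, were found in 12.4% of all windows. Among the 7 members they occurred in the window of *Tubb2a* alone, beginning 29 bases before the start. Other forms of the TATA box were not searched. Neither the letters TTTGAA, held by 16% of windows, nor the CArG box, held by 1.47%, occurred in a window of the 7 members. These matches are a description of the letters, and binding was not measured.

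Tubulin transcripts were higher in the *Pkd1*V/V kidneys. Of the 11 tested probes, 10 were called higher, 0 lower, and 1 was not called, where a call is a Benjamini-Hochberg adjusted *P* under 0.1 from limma over all 14221 tested probes. Over all these probes, 15.2% were called higher and 14.7% lower. The median log2 fold change (*Pkd1*V/V over wild type) was 0.72 for the 11 tubulin probes and 0.01 for all tested probes. By gene, with the brightest tested probe of each, 6 of 7 were called higher, while over all 9833 tested genes 16.2% were called higher and 15.3% lower. No tubulin probe had a lower signal in mutants at an unadjusted *P* under 0.05 from limma. Counts at an unadjusted *P* under 0.05, here and below, are from limma. A plain *t*-test that the methods name called 1 probe, that of *Tuba4a*, lower (adjusted *P* = 0.0939). In 9 of the 11 probes the 4 mutant kidneys did not overlap with the 4 wild-type kidneys, which was so for 27.4% of all tested probes in either direction. All 11 but the *Tuba4a* probe were detected on all 8 arrays, so none of the 10 called probes was tested only because mutants were bright.

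**Figure D1:**
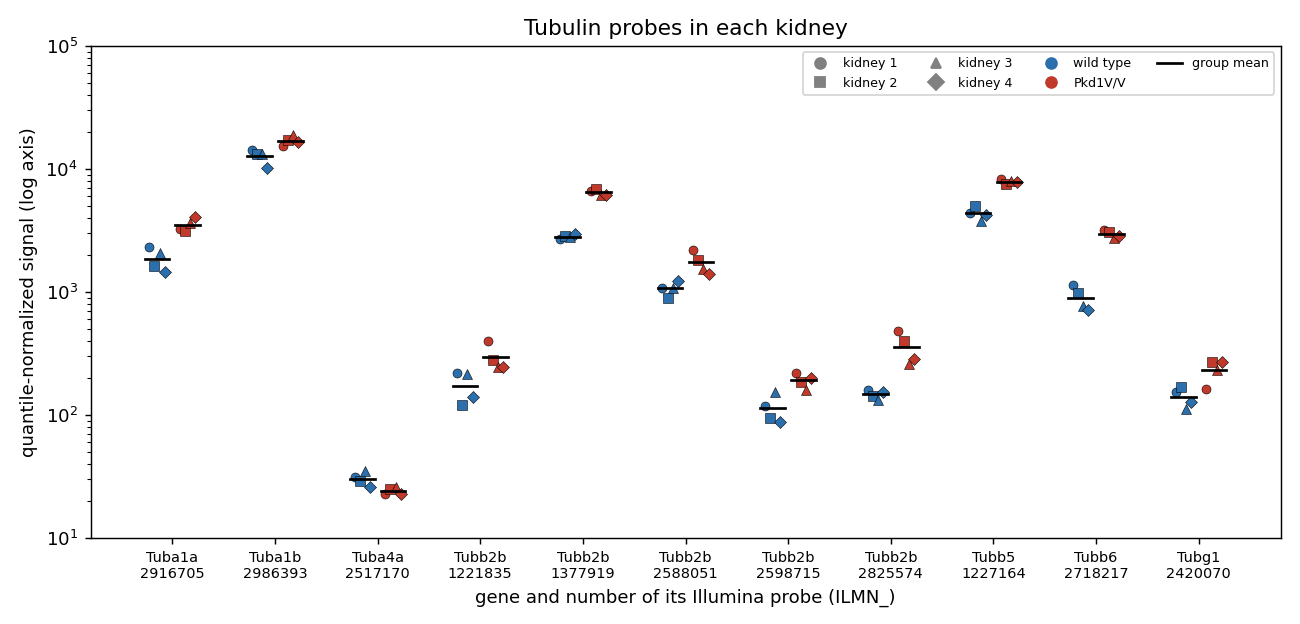
Quantile-normalized signal (log axis) of the 11 tested tubulin probes in each of 4 wild-type (blue) and 4 *Pkd1*V/V (red) kidneys, with the shape of a point giving the kidney's number and a line the group mean. Red points lie above all blue points for 9 probes, touch them for *Tubg1*, and lie mostly below for *Tuba4a*.

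*Tuba1a*, an alpha-tubulin best known from developing neurons, had the largest change of the 3 tested alpha-tubulins among the members. Its signal (probe ILMN_2916705) was 3247, 3108, 3645, and 4057 in *Pkd1*V/V kidneys 1 to 4 and 2329, 1614, 2088, and 1462 in wild-type kidneys 1 to 4. The lowest mutant kidney, number 2, was thus above the highest control, number 1. Means were 3514 ± 428 (SD, n = 4 kidneys) and 1873 ± 404 (SD, n = 4), and the log2 fold change was 0.92 (standard error 0.17, 95% interval 0.54 to 1.30, adjusted *P* = 0.00415 from limma). An exact two-sided permutation test over the kidneys gave *P* = 0.0286, the smallest value that 4 against 4 allow.

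*Tuba1b*, the alpha-tubulin that most cell types use, was also higher, by a smaller factor. In probe ILMN_2986393 the mutant kidneys 1 to 4 had 15319, 17044, 18856, and 16694, and the wild-type kidneys 14395, 13311, 13150, and 10125. Here the groups were close, with mutant kidney 1 just above wild-type kidney 1, and wild-type kidney 4 well below the other controls. The mutant mean was 1.34 times that of controls, taken on the scale of signal plus 16 (log2 fold change 0.42, standard error 0.14, 95% interval 0.11 to 0.73), with an adjusted *P* of 0.0549 from limma. That call was lost without wild-type kidney 4 (log2 fold change 0.31, adjusted *P* = 0.117), without mutant kidney 3 (0.133), and without mutant kidney 4 (0.101).

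*Tuba4a* differs from the other alpha-tubulins in that its gene does not encode the tyrosine at the end of the chain. Signals of probe ILMN_2517170 were near the detection limit, at 22.9 to 26.2 in mutant kidneys, of which 3 were detected, and 26.1 to 35.3 in wild-type kidneys, all 4 detected. The highest mutant and the lowest control nearly coincided, so the groups just overlapped. The log2 fold change was -0.20 (standard error 0.11, 95% interval -0.45 to 0.05, adjusted *P* = 0.231 from limma), and the exact permutation *P* was 0.0571. Up to 23.5% of the signal was the standard error between beads on 1 array, against 2.48% to 9.65% for the other tested tubulin probes.

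Among beta-tubulins, *Tubb6* showed the largest rise of all tested tubulin probes. *Tubb6* is the class V isotype, known from muscle and other tissues outside the nervous system. In probe ILMN_2718217 the signal was 3168, 3095, 2756, and 2831 in mutant kidneys 1 to 4 and 1136, 976, 766, and 718 in wild-type kidneys 1 to 4. Even the lowest mutant kidney was more than 2 times as bright as the brightest control. The means, 2963 ± 200 and 899 ± 194 (SD, n = 4 each), differed by 1.72 on the log2 scale (standard error 0.16, 95% interval 1.37 to 2.08, adjusted *P* = 0.000156 from limma). This change was above that of 99.0% of tested probes, and it lay between 1.59 and 1.84 under the 23 alternatives, each of which called it.

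*Tubb5*, the class I isotype found in nearly all tissues, also rose. Probe ILMN_1227164 read 8251, 7615, 7914, and 7792 in mutants and 4402, 5027, 3788, and 4197 in controls. The mutant kidneys were close to each other and all far above wild-type kidney 2, the highest control. Averages were 7893 ± 268 and 4353 ± 516 (SD, n = 4 each), or 0.86 on the log2 scale (standard error 0.12, 95% interval 0.60 to 1.13, adjusted *P* = 0.000973 from limma).

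*Tubb2b*, a class II isotype known for its part in the developing brain, had 6 probes, of which 5 were tested, and all 5 were called higher with no overlap between the groups. Its brightest probe, ILMN_1377919, had 6587, 6942, 6187, and 6123 in mutants and 2686, 2856, 2810, and 2952 in controls. The controls were nearly alike, and each mutant kidney had more than 2 times the signal of any of them. The means of 6460 ± 381 and 2826 ± 111 (SD, n = 4 each) differed by 1.19 on the log2 scale (standard error 0.10, 95% interval 0.95 to 1.42, adjusted *P* = 0.000149 from limma), with 98 to 144 beads behind each value.

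The dimmer *Tubb2b* probes rose by differing amounts. ILMN_2825574 had 482, 402, 259, and 285 in mutants and 161, 144, 132, and 154 in controls (log2 fold change 1.15, adjusted *P* = 0.00239 from limma). ILMN_2588051 had 2216, 1822, 1543, and 1399 against 1078, 899, 1078, and 1224 (0.68, adjusted *P* = 0.0152). In both, mutant kidney 1 was the highest, and all mutants were above all controls. ILMN_2598715 had 219, 185, 160, and 201 against 118, 95, 153, and 88 (0.70, adjusted *P* = 0.0168). ILMN_1221835 had 403, 281, 247, and 247 against 218, 121, 215, and 140 (0.72, adjusted *P* = 0.0414). Wild-type kidney 3 came close to the lowest mutant in the first of these last 2 probes, and wild-type kidneys 1 and 3 did so in the other. The 5 changes thus ran from 0.68 to 1.19 for 1 gene, and whether they differ from each other was not tested. The call of ILMN_1221835 was lost with no filter on dim probes (adjusted *P* = 0.131), with the *t*-test (0.103), and without mutant kidney 1 and wild-type kidney 4 together (0.162).

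Signals of the beta-tubulin probes that were not tested stayed at background. *Tubb3*, the class III isotype used as a marker of neurons, had 1.34 to 17.3 over the 8 kidneys, and *Tubb2a*, the neighbour of *Tubb2b*, had -4.19 to 6.20. A second *Tubb5* probe ranged from -4.89 to 3.56 and a sixth *Tubb2b* probe from -13.9 to -4.89. For *Tubb5* and *Tubb2b* other probes were well detected, so the dark probes say nothing on the level of those genes.

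*Tubg1* encodes gamma-tubulin, the template on which microtubules start. Signals of probe ILMN_2420070 were 163, 271, 233, and 269 in mutants and 153, 168, 112, and 127 in controls. Mutant kidney 1 lay among the controls, below wild-type kidney 2, and the other 3 mutants were above all of them. With means of 234 ± 50.3 and 140 ± 25.5 (SD, n = 4 each), the log2 fold change was 0.67 (standard error 0.18, 95% interval 0.26 to 1.08, adjusted *P* = 0.0262 from limma), and the exact permutation *P* was 0.0571. The call held in all 23 alternatives.

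**Figure D2:**
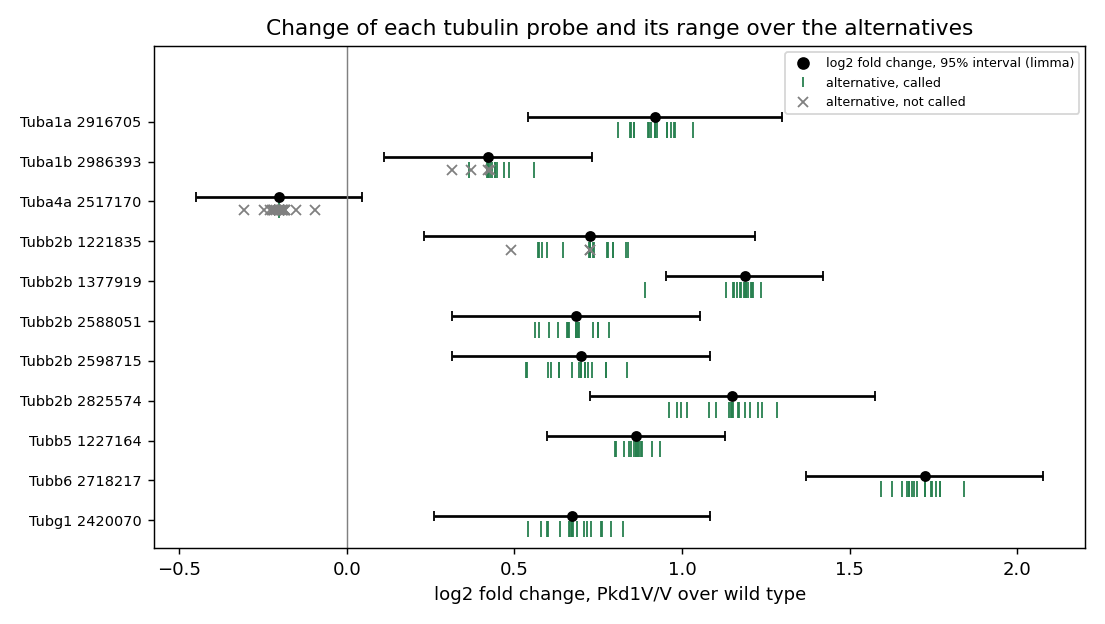
Log2 fold change (*Pkd1*V/V over wild type) of each tested tubulin probe with its 95% interval from limma (black), and its value under each alternative way of processing (green where called, grey crosses where not). *Tubb6* lies farthest to the right at 1.72, and grey crosses occur for *Tuba1b*, *Tuba4a*, and 1 *Tubb2b* probe.

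The isotypes did not change by equal factors. The ratio of each gene's signal to that of *Tubb5* was followed within each kidney as a difference of log2 values, which describes unequal change and not which gene moved. For *Tubb6* this difference was -1.52 to -1.29 in mutants and -2.52 to -1.94 in controls, with no overlap, so *Tubb6* gained on *Tubb5* by 0.86 on the log2 scale. For *Tubb2b* the direction depended on the probe. Its brightest probe gained 0.32, without overlap, at -0.35 to -0.13 in mutants and -0.81 to -0.43 in controls, while the other 4 overlapped, with shifts of -0.18 to 0.29, and the mean of the 5 shifted by 0.03. *Tuba1b* moved the other way, from 1.27 to 1.79 in controls to 0.89 to 1.25 in mutants. *Tuba1a* and *Tubg1* overlapped between the groups in this ratio, with mean shifts of 0.06 and -0.19. *Tuba4a*, whose signal was near the detection limit, had a shift of -1.06 without overlap, as *Tubb5* rose and *Tuba4a* was not called.

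The kidneys that stood highest or lowest were not the same for all members. Mutant kidney 1 had the highest value of its group in 6 of the 11 probes and the lowest in 3, the latter including *Tubg1*. Those 6 were the probes of *Tubb5* and *Tubb6* and the dimmer probes of *Tubb2b*, so several belonged to the same gene. Wild-type kidney 4 had the lowest value of its group in 5 of the 11 probes, among them *Tuba1a*, *Tuba1b*, and *Tubb6*, and wild-type kidney 1 the highest in 5. With mutant kidney 1 and wild-type kidney 4 both left out, 9 of the 11 probes were still called higher and 0 lower. Over all 14221 tested probes, 1731 were called higher and 1788 lower in that setting. *Tubb6* then had a log2 fold change of 1.59 (adjusted *P* = 0.000750 from limma), *Tubb5* 0.83, *Tuba1a* 0.84, and *Tubg1* 0.79.

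Of the other 10 tubulin genes in the mouse, 9 were on the array and 8 were tested, of which 4 were called higher, 0 lower, and 0 had a lower signal at an unadjusted *P* under 0.05 (median log2 fold change 0.36, against 0.02 for all tested genes). Calls over all tested genes were 16.2% higher and 15.3% lower. One of the 4, *Tuba8*, passed the detection filter through mutants only, and without it 3 of 7 were called higher with a median of 0.28. *Tuba8*, an alpha-tubulin known from muscle and testis, had 50.4, 63.96, 31.99, and 41.7 in mutants and 10.9, 5.26, 4.84, and 16.8 in controls. All mutants and no control were detected. It was at least 1.67-fold higher, as the mutant mean over the lowest signal detected on the control arrays, which is a description, since a gene that enters through mutants had to differ. *Tuba3a*, an isotype of testis, had 104, 76.5, 59.0, and 77.7 against 38.1, 36.5, 26.9, and 12.3, a log2 fold change of 1.12 (adjusted *P* = 0.00592 from limma) that ran from 0.63 to 1.53 over the alternatives, while 3 further *Tuba3a* probes were detected on no array. *Tuba3b*, a near-identical copy of *Tuba3a*, rose by 0.76 (adjusted *P* = 0.0201 from limma), and signal of the pair cannot be assigned to either with certainty. *Tubb4b*, an isotype of cilia and many other tissues, rose by 0.43 (adjusted *P* = 0.0646 from limma), with overlapping groups, since the lowest mutant had 3691 and the highest control 3702. Its call was lost in 8 of 23 alternatives, among them those without mutant kidney 2 (adjusted *P* = 0.129), mutant kidney 4 (0.140), wild-type kidney 3 (0.157), or wild-type kidney 4 (0.119). *Tubb4a*, *Tubg2*, *Tube1*, and *Tubd1* were not called, with log2 fold changes of 0.28, 0.14, 0.20, and -0.07, and *Tubb1*, the isotype of platelets, was detected on no array.

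Newly made tubulin is folded by the chaperonin CCT and by the tubulin cofactors. Of 17 tested genes of this group, 6 were called higher, 0 lower, and 0 had a lower signal at an unadjusted *P* under 0.05, with a median log2 fold change of 0.25. Over all tested genes, 16.2% were called higher and 15.3% lower. *Cct3*, a CCT subunit, had 2333, 2776, 2375, and 2099 in mutants and 1770, 1688, 1616, and 1510 in controls (log2 fold change 0.53, adjusted *P* = 0.0123 from limma). *Tbcd*, the cofactor that handles beta-tubulin, rose by 0.47 (adjusted *P* = 0.0235), and *Cct7*, another subunit, by 0.46 (adjusted *P* = 0.0247). In all 3 genes, which were named for their small adjusted *P*, every mutant was above every control. Over all tested probes, 27.4% did not overlap between the groups in either direction. Without 1 kidney, the number called higher was 4 to 6.

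The partners of gamma-tubulin were called higher at about the rate of all tested genes (16.2%). Of 9 tested genes of the gamma-tubulin ring complex and its anchors, 1 was called higher and 0 lower, with 0 lower at an unadjusted *P* under 0.05 and a median of -0.06. That gene was *Tubgcp2*, a core subunit of the ring, with a log2 fold change of 0.28 (adjusted *P* = 0.0929 from limma), and its call was lost in 12 of 23 alternatives, among them each that left out a single kidney. A test of *Tubg1* against these genes was not made.

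Enzymes that add or remove groups on tubulin, such as tyrosine, glutamate, or acetyl groups, gave 2 higher and 0 lower of 9 tested genes, with 1 lower at an unadjusted *P* under 0.05 and a median of 0.06. The share called over all tested genes was 16.2% higher and 15.3% lower. *Ttll12*, of the tubulin tyrosine ligase-like family, had 262, 272, 238, and 222 in mutants and 143, 181, 161, and 187 in controls (log2 fold change 0.53, adjusted *P* = 0.0142 from limma). *Ttll1*, a subunit of a polyglutamylase, was detected in 3 mutants and no control and was at least 1.08-fold higher. It passed the detection filter through mutants only, and without it 1 of 8 was called higher, with a median of 0.02. The call of *Ttll1* was lost in 11 of 22 alternatives, among them those without mutant kidney 1, 3, or 4 or wild-type kidney 3 or 4.

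Proteins that stabilize microtubules or bind their ends gave 6 higher and 2 lower of 20 tested genes, with a median of 0.21. Among all tested genes, 16.2% were called higher and 15.3% lower. *Map2*, known from dendrites, had 591, 549, 427, and 504 in mutants against 299, 349, 275, and 363 in controls (log2 fold change 0.66, adjusted *P* = 0.00900 from limma). *Map6*, which makes microtubules stable to cold, was detected in the 4 mutants only and was at least 1.37-fold higher. It was tested only because mutants were bright, and without it 5 of 19 were called higher, with a median of 0.18. *Dcx*, doublecortin, rose by 0.53 (adjusted *P* = 0.0260 from limma). It was detected in 4 mutants but only 2 controls, so it met the detection filter through the mutants, and it stays in these counts. In the other direction, *Mapre2*, a plus-end binding protein, had 640, 564, 634, and 706 in mutants and 948, 1009, 903, and 925 in controls and fell by 0.56 (adjusted *P* = 0.00621). *Map7*, an epithelial microtubule-associated protein, fell by 0.51 (adjusted *P* = 0.0951), with overlapping groups and the call lost in 13 of 23 alternatives, among them those without mutant kidney 1 or 2 or wild-type kidney 1, 3, or 4.

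Motors that carry cargo along microtubules gave 5 higher and 1 lower of 22 tested genes, with a median of 0.19. The shares over all tested genes were 16.2% higher and 15.3% lower. *Klc3*, a kinesin light chain, changed most, with 187, 184, 124, and 138 in mutants and 32.1, 52.0, 43.5, and 52.9 in controls (log2 fold change 1.51, adjusted *P* = 0.000421 from limma). *Klc4*, another kinesin light chain, went the opposite way, at 382, 349, 349, and 248 against 534, 597, 545, and 560, and fell by 0.74 (adjusted *P* = 0.00542). *Kif1a*, a kinesin of axons, was detected in the 4 mutants only and was at least 1.502-fold higher. Without *Kif1a*, which entered the test through mutants only, 4 of 21 were called higher, with a median of 0.16. *Dync1i2*, a dynein chain, rose by 0.34 (adjusted *P* = 0.0467), a call that was lost without mutant kidney 1, mutant kidney 4, or wild-type kidney 1. The number of motors called higher was 5 without wild-type kidney 4, 2 without wild-type kidney 1, 4 without mutant kidney 3, and 3 without any 1 of the other 5 kidneys.

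**Figure D3:**
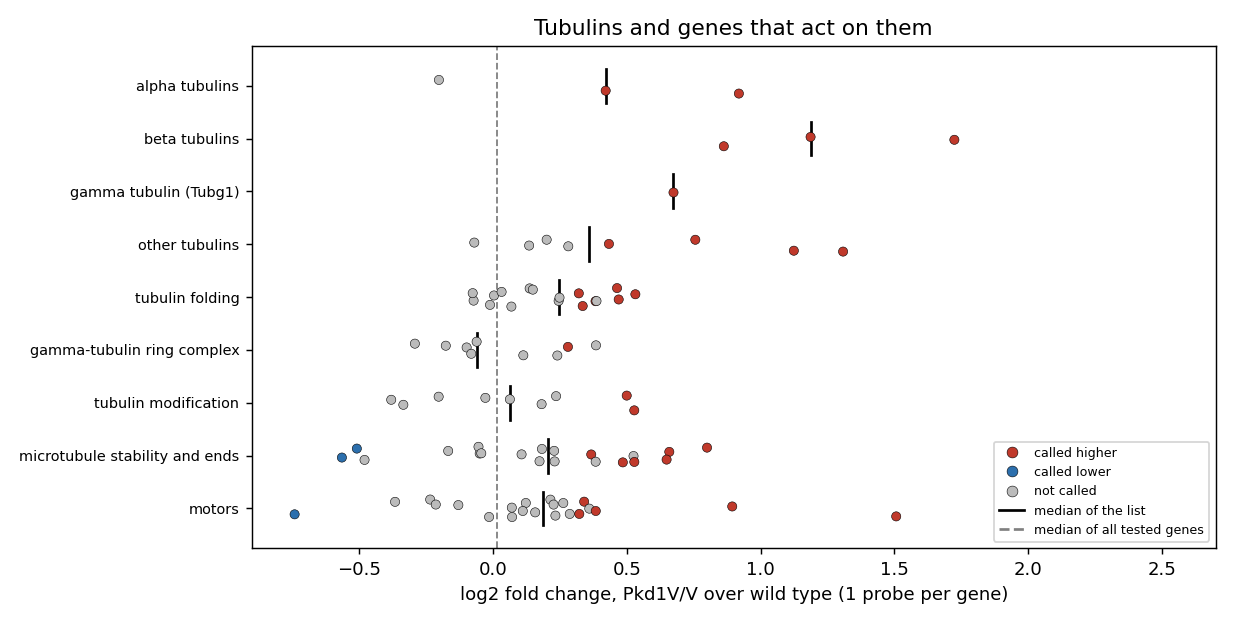
Log2 fold change (*Pkd1*V/V over wild type) of each tested gene, 1 probe per gene, in the tubulins and in groups of genes that act on them, with red for called higher, blue for called lower, grey for not called, and a black line for the median of a group. The 3 tested beta-tubulins of the 10 genes described here have the rightmost median at 1.19. *Tubb4a* and *Tubb4b* are shown with the other tubulins. The gamma-tubulin ring complex has a median of -0.06, near the dashed median of all tested genes at 0.02.

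Genes of other processes and cell types moved between the same kidneys. The count of each marker list stands against 16.2% called higher and 15.3% lower over all tested genes. Dividing cells build their spindle from tubulin, and of 11 tested proliferation genes, 4 were called higher and 0 lower (median 0.55). Their summed signal was 3863 to 6761 in mutants and 2572 to 4927 in controls, so it overlapped between the groups. The sums of the alpha- and of the beta-tubulins among the members did not overlap. *Plk1*, a mitotic kinase, rose by 1.69 (adjusted *P* = 0.0254 from limma), a call lost with no filter (adjusted *P* = 0.119). *Plk1* was detected in 4 mutants but only 2 controls, so it met the detection filter through the mutants. Its groups overlapped, and it stays in the count. *Top2a*, a topoisomerase of dividing cells, rose by 0.73 (adjusted *P* = 0.0593), with its call lost in 8 of 23 alternatives, among them those without mutant kidney 3 or 4 or wild-type kidney 3 or 4. The markers *Ccnb2* and *Bub1* were not detected. The alpha-tubulin sum was highest and lowest in the same kidneys as the proliferation sum. Among mutants, kidney 1 was lowest in both (18589 and 3863) and kidney 3 highest (22528 and 6761). Among controls, kidney 4 was lowest in both (11613 and 2572) and kidney 1 highest (16755 and 4927). Most of the alpha-tubulin sum was signal of *Tuba1b*. *Tuba1a* alone had its lowest and highest control in the same kidneys. Among mutants, *Tuba1a* was instead lowest in kidney 2 (3108) and highest in kidney 4 (4057). The beta-tubulin sum, at 16757 to 18021 in mutants and 7378 to 8872 in controls, was highest in mutant kidney 1. The part of proliferation in the tubulin results was not tested.

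Markers of macrophages and other leukocytes were called higher in 10 of 10 tested genes (median 1.96), with sums of 4740 to 19458 in mutants, mutant kidney 1 the highest, and 1797 to 2238 in controls. *Cd14*, a receptor for bacterial lipopolysaccharide, rose by 2.21 and *Laptm5*, a lysosomal protein of blood cells, by 2.003, while *Ptprc*, *Itgam*, and *Itgb2* were not detected. Fibroblast and smooth muscle markers gave 6 higher and 3 lower of 11 (median 0.49), with sums of 33664 to 37032 and 20753 to 25831, and *Cnn1* was not detected. *Tagln*, a protein of the smooth muscle cytoskeleton, rose by 2.55 and *Acta2*, smooth muscle actin, by 1.53. The 3 lower genes were the fibroblast markers *Lum*, *Dcn*, and *Pdgfra*, with log2 fold changes of -1.38, -0.62, and -0.44.

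Markers of tubule segments also differed between the groups. All 7 tested proximal tubule genes were called lower (median -1.57), with sums of 5644 to 9645 in mutants and 20343 to 25372 in controls, and the log2 fold change was -1.35 for *Aqp1*, a water channel, and -2.03 for *Slc22a8*, an organic anion transporter. Of 7 collecting duct principal cell genes, 5 were called higher and 0 lower (median 0.80), with sums of 18498 to 22253 and 8018 to 8855. In that list *Krt18* and *Krt8*, keratins of simple epithelia, rose by 2.72 and 1.49. The water channels *Aqp2* and *Aqp3*, which define principal cells, were not called, at 0.11 (adjusted *P* = 0.858) and 0.17 (adjusted *P* = 0.793), and *Avpr2* was not detected. *Tubb2b*, *Tubb3*, *Map2*, and *Dcx* are best known from neurons. Of 10 neuron and nerve markers on the array, 9 were detected on no array and 0 were tested. Their sums were 11.4 to 44.1 in mutants and 6.45 to 10.6 in controls, and probes this dim say little on the level of their genes. Liver genes marked wild-type kidney 4, with a sum of 67624 against 8322 to 10429 in the other controls and 2035 to 3911 in mutants. Of erythroid and platelet genes 1 was higher and 2 lower of 6 (median -0.21), with sums of 9606 to 20860 and 21020 to 22153. The part of these cell type differences in the tubulin results was not tested.

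**Figure D4:**
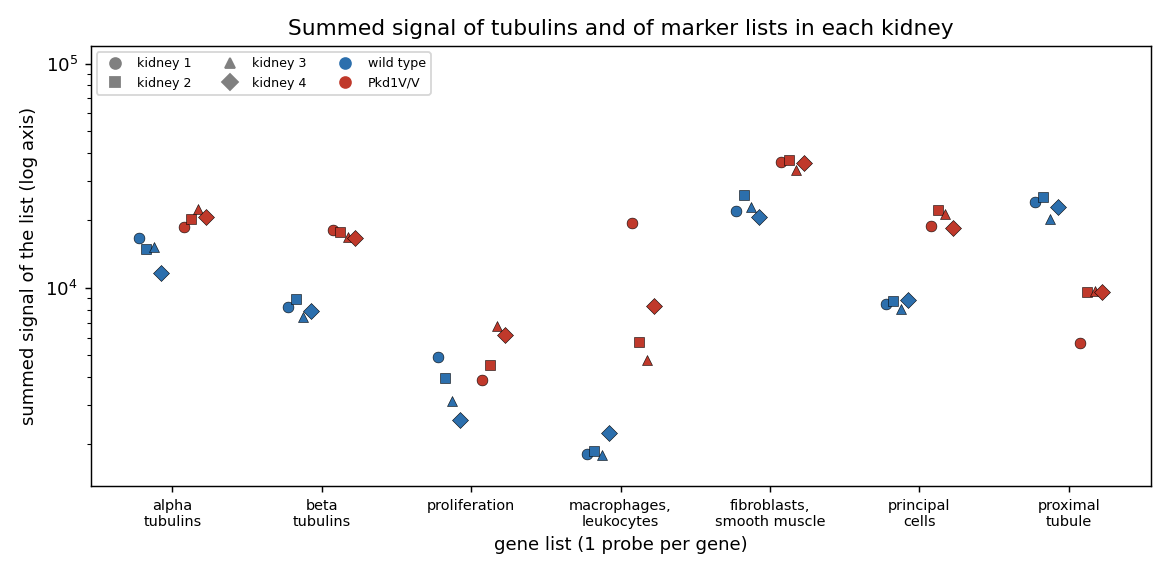
Summed quantile-normalized signal (log axis) of the alpha-tubulins and the beta-tubulins among the members, and of 5 marker lists, in each kidney. Blue is wild type, red is *Pkd1*V/V, and the shape gives the kidney's number. The 2 groups are apart for both tubulin sums and overlap for proliferation, and mutant kidney 1 stands highest for macrophages and leukocytes at 19458.

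The genes whose pattern over the 8 kidneys was most like that of the 3 members with the smallest adjusted *P* were found by Pearson's correlation of log2 values among the tested genes, which mostly reflects the difference between the groups. For *Tubb2b* these were *Krt18* (r = 0.997), *Krt7* (0.997), keratins both, and *Tpm1* (0.995), a tropomyosin. For *Tubb6* they were *Tpm2* (0.990), another tropomyosin, *Il18r1* (0.990), an interleukin receptor chain, and *Prss22* (0.989), a serine protease. For *Tubb5* they were *Il18r1* (0.995), *Scube3* (0.991), and *Plekhf1* (0.990). *Il18r1*, which was near the top for both *Tubb5* and *Tubb6*, had a log2 fold change of 3.56.

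Over the series as a whole, 51.8% to 54.3% of probes were detected on an array, and log2 values of any 2 arrays correlated at 0.8995 to 0.986 across probes. The *Pkd1* probe read 101 in mutants and 117 in controls on average (log2 fold change -0.20, adjusted *P* = 0.557 from limma). The sources used here do not say that the *Pkd1*V/V allele lowers *Pkd1* RNA, so this does not check the labels.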

How the data were processed

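RNA was profiled from 8 whole kidneys at P10, 4 of each genotype, with 1 kidney on each array. The authors deposited background-subtracted bead intensity for 25697 probes without normalization between arrays, together with a detection p-value, the standard error of the bead signal, and the bead count of each probe. A second deposited intensity table, normalized by the authors, served as an alternative. Column medians were 20.9 to 34.6 in the first table and 26.5 to 26.6 in the second. The number of arrays limits the precision. Groups came from the sample titles.

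Values of the first table were quantile-normalized, set to 0 where negative, and transformed to log2 of the value plus 16 in R 4.3.3. Probes with a detection p-value under 0.05 on at least 3 of 8 arrays were kept (14221). The genotypes were contrasted by moderated statistics (lmFit, eBayes, limma 3.58.1), and fold changes are on that log2 scale, which understates those of dim probes. Symbols from the platform annotation (23978 probes with a gene, 1719 with none) were updated for 23962 probes through gene identifiers. A gene was represented by its tested probe with the highest mean.

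Members, gene lists, and tests were chosen with earlier results of these data known. Every member probe is accounted for, and from each related list up to 3 higher and 3 lower genes were named by smallest adjusted *P*, and up to 2 from each marker list. *Tubb4b*, the uncalled tubulins, *Lum*, *Dcn*, *Pdgfra*, *Aqp2*, and *Aqp3* were named after their values were seen. The fit was tested on simulated data of 14221 probes in which 50 were altered for each effect. Recovery was 4 of 50 for a log2 difference of 0.4, 22 for 0.7, 44 for 1.2, and 46 for 1.7. Of 127 calls made, 11 were false, and data with no altered probe gave 0. Far fewer probes were altered in the simulation than were called in the kidneys. A given unadjusted *P* therefore had a larger adjusted *P* in the simulation. Its rates of recovery and of false calls need not hold for the kidneys.

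Alternatives were another offset, normalization, background correction, or filter, 1 value per gene, the authors' normalized table, a replicate block, array weights, the *t*-test of the methods, leaving out 1 kidney at a time, and calls at an adjusted *P* under 0.05. Leaving out mutant kidney 1 and wild-type kidney 4 together was chosen after seeing the data. The SAM procedure that the methods name was not run, since it rests on relabelled samples, and a slide block was not run, since no slide is named in the files.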

Additional observations from a re-analysis of the deposited data

Results flagged for a closer look

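The tubulin probes were searched for a kidney that stands apart within its group of 4, by the gap to its nearest neighbour over the range of the group (Dixon's test at its 95% critical value). Of 22 groups examined, 0 exceeded the critical value.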

How the results depend on the processing

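Leaving out each kidney in turn, among the 23 alternatives, gave 9 to 10 of the 11 tubulin probes called higher and 0 lower. Over all 14221 tested probes, these fits called 1684 to 1992 higher and 1662 to 2025 lower. With 1 value per gene, only 7 genes were tested, and 6 were called higher with the brightest probe and 6 with the mean of a gene's tested probes. The methods' *t*-test called 1 tubulin probe lower, that of *Tuba4a* (adjusted *P* = 0.0939), and the cause was not tested. The direction of all 11 probes held in every alternative that tested them. Calls of single genes that were lost under an alternative are given beside those genes. *Tuba8*, *Tuba3a*, and *Tuba3b* stayed called throughout, with log2 fold changes of 0.59 to 2.31 for *Tuba8*, whose signal lies close to the offset. The labels do not say whether a mutant and a control of the same number form a pair. Deviations of same-numbered kidneys from their group means correlated at -0.25, 0.32, 0.21, and -0.28. These values cannot settle it, since kidneys of different numbers were not compared. With the replicate block, 10 tubulin probes were still called higher and 0 lower, while over all probes 1871 were higher and 1879 lower, against 2166 and 2087 without it. Signals near background limit *Tuba4a*, *Tuba8*, *Tuba3a*, *Ttll1*, *Map6*, *Dcx*, and *Kif1a*, for which a fold change depends on the offset.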
